A study of Mus musculus with 20 samples.

Results

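The genes followed here act in blood clotting and clot lysis and were chosen by name, as the rows of the count table for F3, F7, F10, F13a1, Plau, Plaur, Serpinb2, Thbs1 and Procr. All 9 were among the 24421 genes listed, and all 9 passed edgeR's filter on low counts, which left 12465 genes to test. The libraries came from bone marrow-derived dendritic cells (BMDCs) of wild-type C57BL/6 mice, grown for 8 days with GM-CSF at 40 ng/mL, with no untreated group among those used. Cells of each of 5 mice (A to E) were split over 4 groups, so that DMSO Ova, iBET Ova, DMSO IC and iBET IC each hold 5 libraries, 1 per mouse. Ova is ovalbumin alone and IC is ovalbumin bound by IgG into an immune complex, which cross-links Fcγ receptors, and both were given for 4 hours. I-BET151 (iBET) at 3.3 μM is an inhibitor of the bromodomains by which BET proteins read acetylated histones, and DMSO is its solvent. The labels give 5% DMSO for the control cells and do not say whether iBET cells received as much, and they describe iBET and stimulus as added together, whereas the study's methods put iBET shortly before the stimulus.

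Coagulation starts when tissue factor on a cell surface binds factor VII, and the complex activates factor X, whose product cuts prothrombin into thrombin. Thrombin turns fibrinogen into fibrin, which factor XIII crosslinks. Fibrin is removed by plasmin, which urokinase bound to its receptor makes from plasminogen and which the serpin inhibitors of urokinase restrain. Macrophages and dendritic cells make several of these proteins outside the liver, and they are known for laying down and clearing fibrin at sites of inflammation. Only messenger RNA was measured here, so the values say nothing of secreted protein, of cleaved factors or of clotting activity.

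Total counts ranged from 16447491 to 29245150 per library (median 21764663), and values are given as CPM (counts scaled to a common library size) after edgeR's TMM scaling. Marker genes of dendritic cells were present in every group, with a summed level of 4299 to 8823 CPM over 8 markers, although Flt3 had a mean of no more than 3.03 CPM and Cd209a no more than 0.28 CPM in any group. Most of the sum was Itgax and Cd74. With iBET the mean of Ciita went from 43.8 to 1.36 CPM in Ova and from 46.6 to 1.06 CPM in IC. That of Cd74 went the other way, from 2660 to 3168 CPM in Ova and from 3243 to 3808 CPM in IC. The mean of Itgax went from 1961 to 2107 CPM in Ova and from 2061 to 2284.5 CPM in IC. Markers of macrophages (summed level 847 to 1835 CPM over 7 genes) were present as well, as is usual in cultures grown with GM-CSF. Neutrophil markers summed to between 12.6 and 52.7 CPM, and fibroblast markers to no more than 1.06 CPM. In whole cultures, fewer cells of one type and less RNA per cell cannot be told apart. On the second principal component of log2 CPM, which held 14.9% of the variance, all libraries of mice A and B (-33.8 to -18.6) stood apart from those of mice C, D and E (9.83 to 23.5), and the labels name no batch that goes with this.

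Among these genes, in the fit of the groups alone, iBET lowered tissue factor, factor X, urokinase, its inhibitor Serpinb2 and thrombospondin-1. Immune complexes in DMSO raised tissue factor, the urokinase receptor and the protein C receptor in that fit. With iBET, 5 of the 9 genes fell with Ova and 0 rose, where 28.9% of all tested genes fell and 27.7% rose. With IC, the same comparison gave 5 lower and 0 higher genes, against 29.0% and 27.1% of all genes. The 5 genes that fell were F3, F10, Plau, Serpinb2 and Thbs1 under both stimuli. Immune complexes against Ova in DMSO gave 3 higher genes (F3, Plaur and Procr) and 0 lower ones, against 9.59% and 10.7% of all genes. Leaving out mouse C, or mouse E, left 0 of the 9 genes called in that comparison. In iBET the same stimulus gave 1 higher gene (F3) and 0 lower ones, against 5.19% and 6.63%. F3 had only 4 to 9 counts in iBET Ova and 7 to 23 in iBET IC. With the 10 iBET libraries alone F3 did not pass the filter on low counts, and 0 of the 8 genes tested were called. The IC contrasts depend on scaling over all genes, with 1196 higher and 1335 lower in DMSO under TMM but 584 and 2593 under library size only, and 647 and 827 in iBET but 313 and 2028, while the counts of the 9 genes were 3 and 1 either way. For the interaction (the iBET change under IC less that under Ova), edgeR called 0 of the 9 genes in either direction, and 0 had an unadjusted p under 0.05, where 0.0241% of all genes were called higher and 0.0160% lower. The DESeq2 Wald test also called 0 of the 9 there.

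The median log2 fold change of the 9 genes was -1.16 for iBET with Ova and -0.83 for iBET with IC, beside -0.0029 and -0.0054 over all tested genes. For IC it was 0.48 in DMSO and 0.61 in iBET, beside -0.024 and -0.014 over all genes. Every call in these counts is from edgeR's quasi-likelihood test fitted on group alone, at a Benjamini-Hochberg adjusted p under 0.05. Because the 4 libraries of a letter come from 1 mouse, a fit that takes the mouse as replicate block compares libraries of the same animal, and it changed these counts. With the block, 8 genes were lower with iBET in Ova, 9 were lower in IC, 5 were higher with IC in DMSO and 7 were higher with IC in iBET, with none in the opposite direction. The block raised the share over all tested genes as well, to 35.2% lower and 33.5% higher for iBET in Ova, 35.4% and 32.6% for iBET in IC, 19.8% and 18.3% for IC in DMSO, and 14.7% and 14.2% for IC in iBET. For the interaction the block called 0 of the 9 genes, against 0.417% lower and 0.401% higher over all genes. The blocked value is given below wherever it changes a call of these 9 genes.

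**Figure D1:**
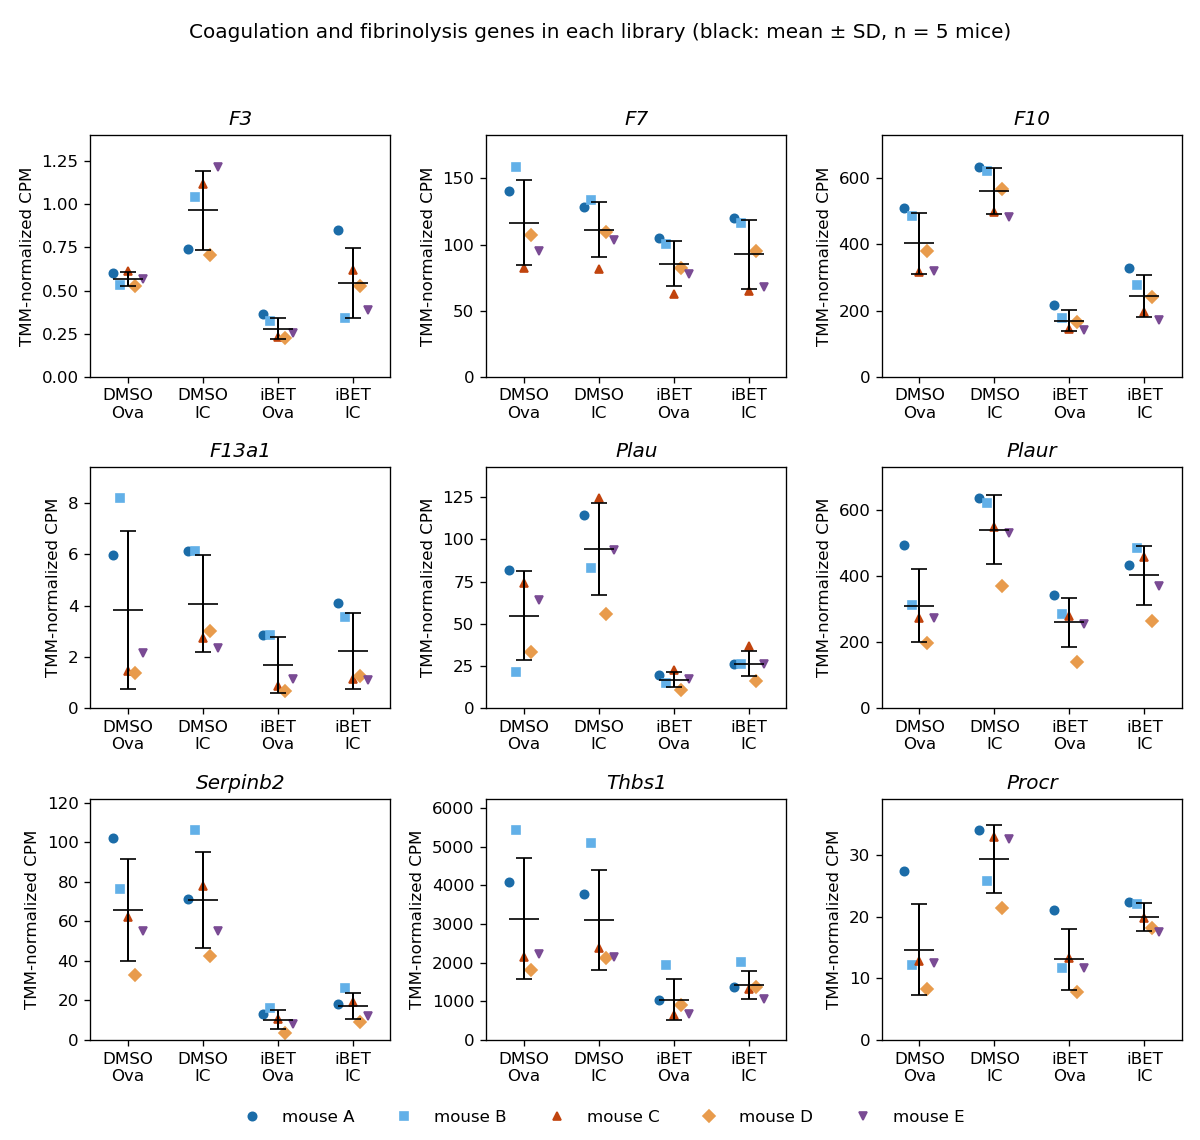
TMM-normalized CPM (linear axes starting at 0) of the 9 genes in each of 20 libraries, by group, with the 5 mice as coloured symbols and the mean ± SD in black. Serpinb2 and F10 lie lower in every iBET library than in any DMSO library of the same stimulus, whereas the F7 values of the groups overlap.

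**Figure D2:**
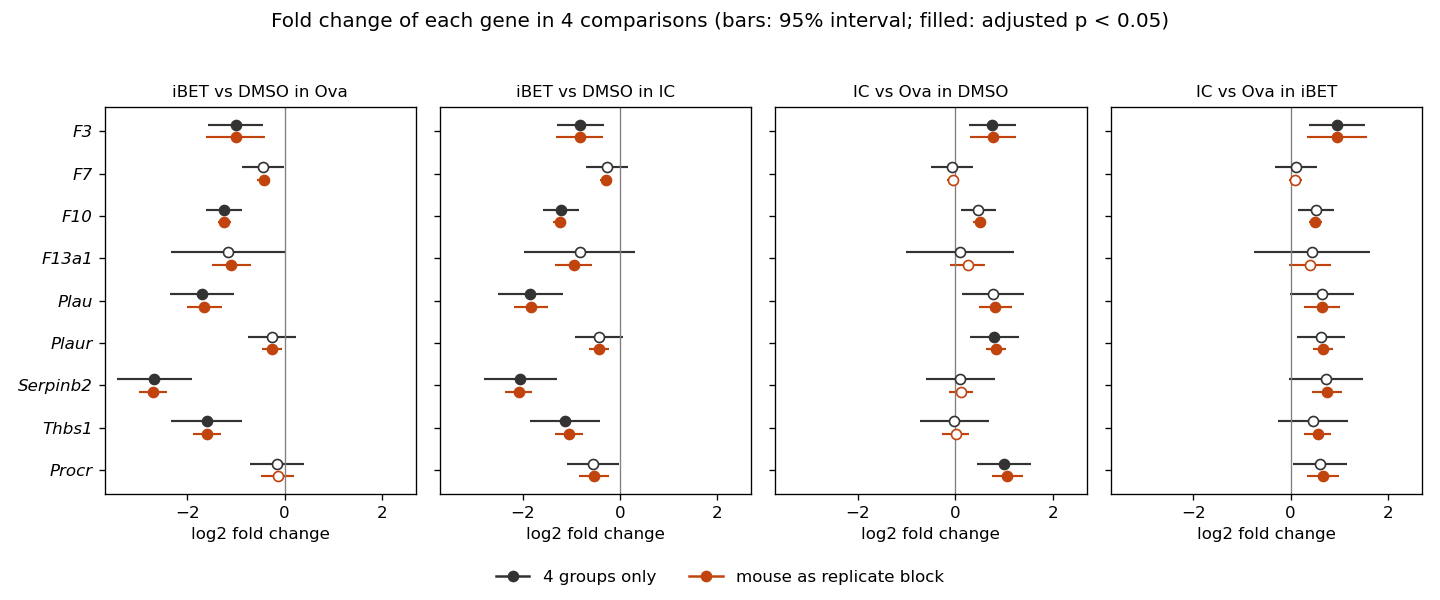
Log2 fold change (points) with its 95% interval (bars) for each gene in 4 comparisons, from the fit with groups only (dark) and from the replicate block by mouse (orange), filled where the adjusted p was under 0.05. Estimates of both fits lie close together, and intervals are narrower with the block for 8 genes, F3 being the exception.

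The order of abundance was set by level per kilobase of exon, in CPM per kb. In DMSO Ova, Thbs1 was highest at a mean of 517, followed by F10 at 148, Plaur at 118, F7 at 62.8, Serpinb2 at 28.0, Plau at 23.2, Procr at 7.20, F13a1 at 0.567 and F3 at 0.225. Neighbours in this order overlapped in their ranges over the 5 mice except at 3 steps, from Thbs1 to F10, from F7 to Serpinb2 and from Procr to F13a1. With iBET and Ova, Thbs1 stood at 171 CPM per kb, Plaur at 99.1, F10 at 61.9, F7 at 46.1, Plau at 7.16, Procr at 6.43, Serpinb2 at 4.39, F13a1 at 0.250 and F3 at 0.111. Plaur thus came before F10 and Serpinb2 after Plau and Procr, although the ranges of these genes overlapped.

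Tissue factor, encoded by F3, is the membrane receptor that binds factor VII and starts coagulation. The gene lies on the plus strand at chr3:121723537-121735048 (GRCm38). It was the least abundant of the 9 genes, with 4 to 30 counts per library, so counting error is a large part of its spread. In DMSO Ova the 5 mice A to E had 0.60, 0.53, 0.61, 0.53 and 0.56 CPM, and in DMSO IC 0.74, 1.04, 1.12, 0.71 and 1.22 CPM. In iBET Ova they had 0.36, 0.33, 0.23, 0.23 and 0.25 CPM, and in iBET IC 0.85, 0.34, 0.62, 0.52 and 0.39 CPM. All 5 DMSO IC libraries were above all 5 DMSO Ova libraries, and all 5 iBET Ova libraries were below them, whereas iBET IC overlapped both DMSO groups. F3 fell with iBET by 1.00 on the log2 scale with Ova (SE 0.271, edgeR adjusted p = 0.00378) and by 0.81 with IC (SE 0.234, adjusted p = 0.00612). It rose with IC by 0.76 in DMSO (SE 0.234, adjusted p = 0.0261) and by 0.95 in iBET (SE 0.272, adjusted p = 0.0266). In a fit of the 10 iBET libraries alone, F3 did not pass the filter on low counts. The fall with IC was seen in 4 of 5 mice, and its adjusted p was 0.0541 without mouse B and 0.0688 without mouse E. The rise in DMSO kept an adjusted p under 0.05 only without mouse A (0.0176, against 0.0664 to 0.121 without each other mouse), and the rise in iBET only without mouse B (0.0299, against 0.0538 to 0.154).

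The promoters of F3, Plaur and Procr, the genes called higher with immune complexes, and of Serpinb2, which had the largest fall with iBET, are shown from 250 bases before to 50 bases after the RefSeq start (GRCm38.p6). RefSeq promoters were matched by symbol for 7 of the 9 genes. Capitals mark the letters searched on both strands, which were AP-1 (TGACTCA), an NF-kB-like motif (GGNNTTTCC), the EGR and SP1 box (GGGCGG), the CRE (TGACGTCA) and a TATA box (TATAAA).
F3, chr3:121723287-121723586, plus strand: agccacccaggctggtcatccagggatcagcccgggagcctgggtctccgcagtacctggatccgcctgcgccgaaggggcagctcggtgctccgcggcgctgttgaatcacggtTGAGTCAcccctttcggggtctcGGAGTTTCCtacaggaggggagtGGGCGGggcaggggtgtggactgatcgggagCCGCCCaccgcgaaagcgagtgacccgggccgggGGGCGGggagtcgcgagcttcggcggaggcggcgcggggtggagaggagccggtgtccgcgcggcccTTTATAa
Plaur, chr7:24462233-24462532, plus strand: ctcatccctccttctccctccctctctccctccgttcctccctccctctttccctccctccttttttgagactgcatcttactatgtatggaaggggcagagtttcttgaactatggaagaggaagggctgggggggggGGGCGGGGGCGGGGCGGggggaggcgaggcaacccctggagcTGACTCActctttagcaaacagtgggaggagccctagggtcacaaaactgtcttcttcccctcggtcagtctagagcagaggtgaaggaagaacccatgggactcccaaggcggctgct
Procr, chr2:155750967-155751266, plus strand: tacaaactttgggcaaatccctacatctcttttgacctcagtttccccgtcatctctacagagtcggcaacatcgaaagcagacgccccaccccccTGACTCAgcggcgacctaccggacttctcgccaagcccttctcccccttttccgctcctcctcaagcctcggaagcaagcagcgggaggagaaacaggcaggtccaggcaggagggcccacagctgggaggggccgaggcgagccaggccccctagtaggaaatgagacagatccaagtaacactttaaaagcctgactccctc
Serpinb2, chr1:107511173-107511472, plus strand: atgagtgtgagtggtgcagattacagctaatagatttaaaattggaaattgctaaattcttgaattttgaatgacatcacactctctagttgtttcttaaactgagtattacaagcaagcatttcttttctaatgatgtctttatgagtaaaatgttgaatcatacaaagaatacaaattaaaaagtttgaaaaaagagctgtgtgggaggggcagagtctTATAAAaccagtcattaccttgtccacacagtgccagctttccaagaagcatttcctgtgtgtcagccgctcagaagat
The AP-1 letters occurred in 3 of the 7 genes, at -135 in F3 on the minus strand, at -69 in Plaur and at -154 in Procr, counted from the start to the first base of the match, and 5.2% of 32851 mouse promoters held them. F3 also held the NF-kB-like letters at -112 (5.82% of promoters), and both F3 and Plaur held 3 copies of GGGCGG, a motif found in 35.7% of promoters, with the 3 copies in Plaur within 1 overlapping run. Serpinb2 held TATAAA at -29, and 13.6% of promoters held these letters. F3 held them at 44 on the minus strand, after its start, and the second promoter listed for Serpinb2, which overlaps the first, held the same copy at -116 from its own start. The second promoter listed for F13a1 held the NF-kB-like letters at -128, the F7 and F10 windows held none of the 5 motifs, and the CRE letters (1.79% of promoters) were in none of the 7 genes. These matches describe letters only.

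Factor VII and factor X, the zymogens that tissue factor recruits and activates, are encoded side by side on the plus strand, F7 at chr8:13026034-13035809 and F10 at chr8:13037308-13056676, with 1498 bases between them. F10 fell more than 2-fold with iBET under both stimuli, whereas F7 was called in edgeR with the replicate block and not without it. In DMSO Ova, F10 had 510, 486, 317, 381 and 321 CPM in mice A to E, and in DMSO IC 635, 621, 497, 567 and 483 CPM. In iBET Ova it had 218, 179, 143, 165 and 140 CPM, and in iBET IC 330, 278, 197, 240 and 171 CPM. Under each stimulus every iBET library was below every DMSO library. The fall on the log2 scale was 1.25 with Ova (SE 0.176, edgeR adjusted p = 5.17e-06) and 1.21 with IC (SE 0.175, adjusted p = 8e-06), and within a mouse the DMSO level was 1.92 to 2.82 times the iBET level. F10 was higher with IC than with Ova in 5 of 5 mice in DMSO and in iBET, by 0.48 (SE 0.173, adjusted p = 0.0578) and 0.52 (SE 0.174, adjusted p = 0.0559) on the log2 scale. With the replicate block these rises had adjusted p values of 7.05e-06 and 1.06e-05.

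F7 had 141, 159, 82.0, 107 and 94.9 CPM in DMSO Ova, and 129, 134, 81.7, 110 and 103 CPM in DMSO IC. With iBET it had 105, 101, 62.9, 82.1 and 77.6 CPM in Ova, and 120, 116, 64.8, 94.8 and 67.8 CPM in IC. Mice A and B were above mice C, D and E in all 4 groups, as they were for F10 and F13a1. The iBET and DMSO ranges of F7 overlapped under both stimuli. iBET gave F7 a log2 fold change of -0.45 with Ova (SE 0.205, adjusted p = 0.0705) and -0.26 with IC (SE 0.204, adjusted p = 0.286), and iBET was lower in 5 of 5 mice under both stimuli. With the replicate block the fall was 0.43 (adjusted p = 8.93e-06) and 0.29 (adjusted p = 0.000606). The IC against Ova differences of F7, -0.07 in DMSO and 0.12 in iBET, were called in neither fit (edgeR adjusted p = 0.866 and 0.783 with the groups alone).

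With Ova, the 95% intervals of the iBET effect were -0.87 to -0.02 for F7 and -1.62 to -0.88 for F10 on the log2 scale. The difference between these genes was not itself tested. The gene on the other side of F7, Mcf2l, lies 5128 bases away on the same strand. Its mean fell from 57.5 to 5.10 CPM with iBET in Ova (log2 fold change -3.49, adjusted p = 1.14e-12), and it rose with IC in DMSO by 0.92 (adjusted p = 0.000148). Proz, on the far side of F10, encodes protein Z and had no more than 14 counts in a library. F7, F10 and Mcf2l, neighbours on 1 strand, thus had log2 changes with iBET of -0.45, -1.25 and -3.49 in the same libraries.

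F13a1 encodes the A subunit of factor XIII, the transglutaminase that crosslinks fibrin, and is a gene of monocytes, macrophages and megakaryocytes. It lies on the minus strand at chr13:36867178-37050244, where the annotation also places the antisense genes Gm49144 and Gm30489, neither of which was in the count table. Mice A to E had 5.96, 8.18, 1.46, 1.37 and 2.15 CPM in DMSO Ova and 6.15, 6.13, 2.75, 3.00 and 2.35 CPM in DMSO IC. With iBET they had 2.87, 2.87, 0.87, 0.68 and 1.13 CPM in Ova and 4.11, 3.56, 1.14, 1.24 and 1.11 CPM in IC. The mean of mice A and B was 2.27 to 4.26 times that of mice C, D and E, depending on the group, and the iBET and DMSO groups overlapped. iBET gave F13a1 a log2 fold change of -1.16 with Ova (SE 0.562, adjusted p = 0.085) and -0.83 with IC (SE 0.543, adjusted p = 0.203), and the level was lower in 5 of 5 mice under both stimuli. With the replicate block the fall was 1.10 (adjusted p = 5.61e-05) and 0.95 (adjusted p = 0.000141). The IC against Ova differences, 0.10 in DMSO and 0.43 in iBET, did not pass the test in either fit. Platelet and megakaryocyte markers summed to between 41.8 and 124 CPM, mostly Pf4, with Gp9 and Gp1ba at no more than 2 counts in any library. Of 5 tested, Ppbp was called in 2 comparisons, higher with IC in DMSO and lower with iBET in IC. With the block it was also lower with iBET in Ova, and Pf4 was higher with IC in DMSO. The part of such cells in F13a1 was not tested.

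Plasmin formation is driven by urokinase, the protease encoded by Plau, which is held at the cell surface by its receptor, encoded by Plaur. Plau fell more than 3-fold with iBET, and its values with IC were above those with Ova in every mouse. The gene lies on the plus strand at chr14:20836660-20843385. In DMSO Ova it had 82.1, 21.3, 74.0, 33.4 and 63.9 CPM in mice A to E, and in DMSO IC 114, 83.3, 124, 55.6 and 93.7 CPM. In iBET Ova it had 19.8, 14.8, 22.4, 10.7 and 17.1 CPM, and in iBET IC 26.4, 26.0, 37.1, 16.4 and 26.0 CPM. With IC all iBET libraries were below all DMSO libraries, whereas with Ova the DMSO library of mouse B lay within the iBET range. The fall was 1.70 with Ova (SE 0.318, edgeR adjusted p = 0.000139) and 1.84 with IC (SE 0.315, adjusted p = 5.36e-05) on the log2 scale. Within a mouse the DMSO level was 1.44 to 4.14 times the iBET level with Ova, mouse B having the smallest ratio, and 3.21 to 4.34 times with IC. The IC against Ova difference was 0.78 in DMSO (SE 0.305, adjusted p = 0.0784) and 0.64 in iBET (SE 0.316, adjusted p = 0.207). With the block these rises were 0.82 (adjusted p = 0.000593) and 0.65 (adjusted p = 0.00981).

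Plaur lies on the plus strand at chr7:24462484-24475968. It had 493, 313, 273, 196 and 273 CPM in DMSO Ova, and 634, 620, 547, 370 and 529 CPM in DMSO IC. With iBET it had 341, 284, 279, 139 and 254 CPM in Ova, and 434, 485, 456, 263 and 370 CPM in IC. The receptor was higher with IC in 5 of 5 mice, by 1.29 to 2.00 times in DMSO and 1.27 to 1.90 times in iBET, though the groups overlapped, with mouse D low in every group. The rise in DMSO was 0.80 (SE 0.238, adjusted p = 0.0221), and its adjusted p was 0.0892, 0.123 and 0.0975 without mice B, C and E. In iBET it was 0.63 (SE 0.238, adjusted p = 0.0911), and 0.66 with the block (adjusted p = 6.87e-05). Unlike Plau, Plaur was not called with iBET in the fit of the groups alone, with a log2 fold change of -0.26 with Ova (95% interval -0.75 to 0.24, adjusted p = 0.373) and -0.43 with IC (-0.92 to 0.07, adjusted p = 0.133). With the block both were called (-0.26, adjusted p = 0.0257, and -0.43, adjusted p = 0.000688). Whether Plau and Plaur differ in their response to iBET was not tested as such.

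Serpinb2 encodes plasminogen activator inhibitor 2, a serpin that inhibits urokinase and is found mostly inside myeloid cells. It lies on the plus strand at chr1:107511423-107535478, where the end of the gene overlaps Serpinb10 on the same strand. How reads from the shared stretch were counted is not stated. Serpinb2 had 102, 76.3, 62.2, 32.9 and 55.1 CPM in DMSO Ova and 71.0, 106, 78.1, 42.5 and 55.0 CPM in DMSO IC. With iBET it had 13.0, 15.9, 10.7, 3.56 and 8.28 CPM in Ova and 18.3, 26.1, 19.2, 9.20 and 12.1 CPM in IC. This was the largest fall of the 9 genes in both iBET comparisons, and iBET and DMSO libraries did not overlap under either stimulus. The log2 fall was 2.68 with Ova (SE 0.370, edgeR adjusted p = 4.19e-06) and 2.05 with IC (SE 0.356, adjusted p = 6.35e-05), and within a mouse the DMSO level was 4.79 to 9.25 times the iBET level with Ova and 3.89 to 4.62 times with IC. IC against Ova gave 0.10 in DMSO (SE 0.338, adjusted p = 0.879), with 3 of 5 mice higher. In iBET it gave 0.73 (SE 0.362, adjusted p = 0.206), with 5 of 5 mice higher and an adjusted p of 0.000776 with the block. The interaction was 0.63 on the log2 scale (95% interval -0.40 to 1.67) in the fit of the groups alone. It had the same sign in 5 of 5 mice, with an adjusted p of 0.143 with the block in edgeR and 0.0457 with the block in DESeq2.

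Thrombospondin-1, encoded by Thbs1, is a large adhesive glycoprotein of platelet granules and matrix that binds CD36 and CD47. It was the most abundant of the 9 genes, and iBET lowered it under both stimuli. The gene lies on the plus strand at chr2:118111876-118127133, with the antisense lincRNA Gm29233, which was not in the count table. It had 4091, 5429, 2148, 1805 and 2219 CPM in DMSO Ova and 3773, 5085, 2383, 2111 and 2149 CPM in DMSO IC. With iBET it had 1022, 1950, 654, 904 and 661 CPM in Ova and 1370, 2021, 1305, 1375 and 1054 CPM in IC. Mice A and B were above the others in both DMSO groups and in iBET Ova. With IC, iBET libraries were below all DMSO libraries, whereas with Ova mouse B given iBET was above mouse D given DMSO. The fall was 1.60 with Ova (SE 0.350, edgeR adjusted p = 0.000643) and 1.12 with IC (SE 0.345, adjusted p = 0.00938). IC against Ova gave -0.02 in DMSO (SE 0.341, 95% interval -0.73 to 0.70) and 0.46 in iBET (SE 0.342, adjusted p = 0.439), and in iBET the level was higher in 5 of 5 mice, with an adjusted p of 0.00415 with the block. The interaction was 0.47 in the fit of the groups alone and 0.55 with the block (adjusted p = 0.223).

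Procr encodes the endothelial protein C receptor, which presents protein C to thrombin and thrombomodulin for activation into an anticoagulant. It lies on the plus strand at chr2:155751117-155755471. It had 27.4, 12.1, 12.8, 8.33 and 12.4 CPM in DMSO Ova and 34.0, 25.8, 32.8, 21.3 and 32.6 CPM in DMSO IC. With iBET it had 21.1, 11.6, 13.3, 7.70 and 11.6 CPM in Ova and 22.3, 22.1, 19.8, 18.1 and 17.5 CPM in IC. Mouse A was far above the other mice with Ova, and the Ova and IC groups overlapped only through that mouse. Procr rose with IC in DMSO by 1.00 on the log2 scale (SE 0.263, edgeR adjusted p = 0.0113), in 5 of 5 mice and by 1.24 to 2.63 times, and without mouse A the rise was 1.31. Its adjusted p was 0.0935 without mouse C and 0.0732 without mouse E. In iBET the difference was 0.61 (SE 0.264, adjusted p = 0.144), and 0.67 with the block (adjusted p = 0.00367). With iBET, Procr had a log2 fold change of -0.16 in Ova (SE 0.266, adjusted p = 0.622) and -0.55 in IC (SE 0.259, adjusted p = 0.0772), the latter called with the block (adjusted p = 0.0035). The interaction was negative in 5 of 5 mice at -0.39 (SE 0.371), not called in either fit.

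Procr is best known from endothelial cells, and 2 of 4 endothelial markers were high enough to be tested. The summed level of the 4 markers was 2.28 to 13.3 CPM in DMSO Ova, 5.07 to 23.7 in DMSO IC, 1.26 to 5.90 in iBET Ova and 2.89 to 9.91 in iBET IC. Most of it was Kdr, with Tek at no more than 1 count and Emcn at no more than 4 counts in any library. Cdh5 was higher with IC in DMSO (0.92 against 0.32 CPM, log2 fold change 1.45, adjusted p = 0.0334) and lower with iBET in IC (-2.66, adjusted p = 0.000266), and Kdr was called in none of the 4 comparisons in the fit of the groups alone. With the block Kdr was called in all 4, with log2 fold changes of -1.26 and -0.79 with iBET in Ova and IC (adjusted p = 1.63e-05 and 0.00038) and of 0.84 and 1.31 with IC in DMSO and iBET (adjusted p = 0.00062 and 9.04e-05). Cdh5 was also lower with iBET in Ova with the block (-1.37, adjusted p = 0.0132). The part of these levels in Procr was not tested. Macrophage markers moved with iBET too, and 4 of 7 fell and 1 rose with Ova, while 2 fell and 1 rose with IC. With the block 5 fell and 1 rose with Ova, 4 fell and 1 rose with IC, 1 rose and 1 fell with IC in DMSO, and 5 rose with IC in iBET. Their summed level went from 1212-1835 CPM to 847-1206 CPM with Ova and from 1284-1771 to 899-1361 CPM with IC, with none of the 7 at 0 in every library. Of 7 dendritic cell markers tested, Ciita and Flt3 fell and 0 rose with iBET under both stimuli. With the block 4 fell under both stimuli (Ccr7, Ciita, Zbtb46 and Flt3). Among the same markers, 1 rose with Ova (Cd74) and 2 rose with IC (Cd74 and Itgax). For IC against Ova, 4 rose and 0 fell with the block in DMSO and in iBET. Of 3 monocyte markers tested, Ccr2 fell with iBET from a mean of 487 to 15.0 CPM in Ova and from 219 to 15.4 CPM in IC. It was also called lower with IC in DMSO in both fits, from 487 to 219 CPM. The 4 markers together summed to between 8710 and 19834 CPM in DMSO Ova and between 12277 and 21778 CPM in iBET Ova, mostly Chil3. With the block Chil3 was called higher with iBET in Ova and in IC, by 0.29 on the log2 scale in both. The part of these markers in the changes of the coagulation genes was not tested.

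**Figure D3:**
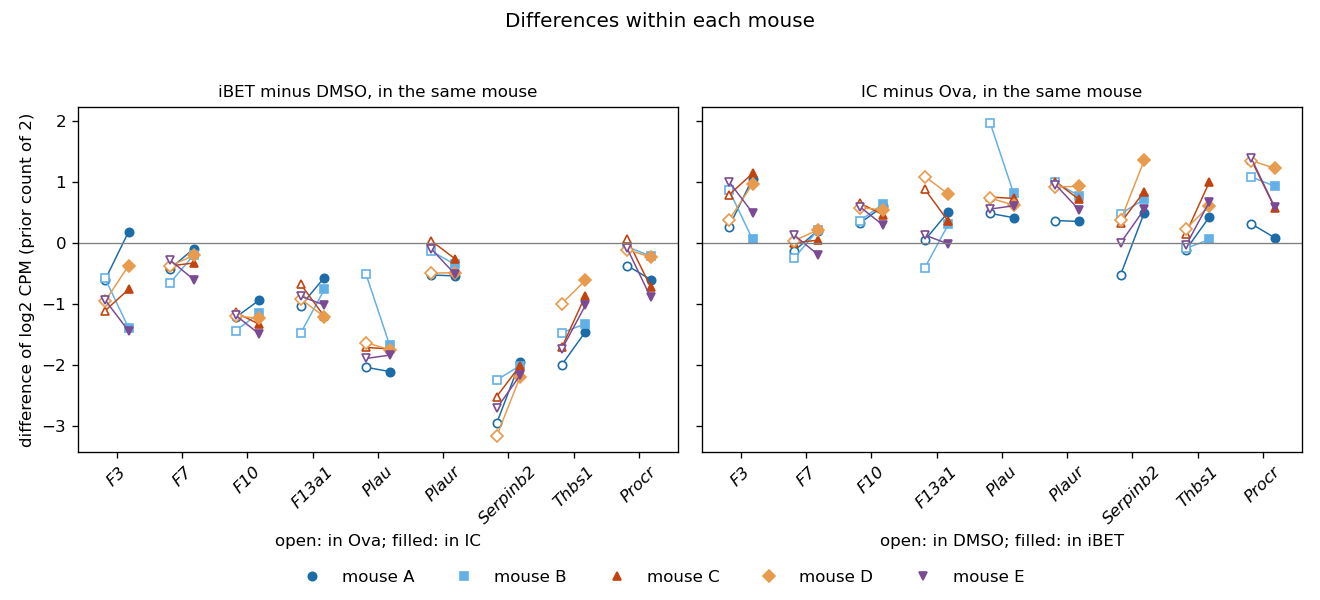
Difference of log2 CPM (prior count of 2) between 2 libraries of the same mouse for each gene, for iBET minus DMSO (left; open with Ova, filled with IC) and IC minus Ova (right; open in DMSO, filled in iBET), with a line joining the values of a mouse. F7, F10, F13a1, Plau, Serpinb2 and Thbs1 are below 0 in all 5 mice on the left, and F3, F10, Plau, Plaur and Procr are above 0 in all 5 mice on the right.

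Within mice, 5 of 5 animals were lower with iBET for F7, F10, F13a1, Plau, Serpinb2 and Thbs1 under both stimuli, and 5 of 5 were higher with IC for F3, F10, Plau, Plaur and Procr in both solvent and inhibitor. The plot of differences within each mouse shows the same for single animals. The share of all tested genes with 5 of 5 mice in 1 direction was not counted, so these genes cannot be set against it. All 5 iBET libraries were below all 5 DMSO libraries for 3 genes with Ova and 4 with IC, where 19.5% and 21.6% of all tested genes did the same and 18.5% and 21.1% lay wholly above. All 5 IC libraries were above all 5 Ova libraries for 1 gene in DMSO and 0 in iBET, against 5.97% and 4.57% of all genes, and wholly below for 0 in either, against 6.41% and 5.46%. The iBET contrasts in Ova and in IC use different libraries of the same mice, whereas the iBET and IC contrasts share groups, so their values are given side by side and not correlated.

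Across the 20 libraries, the pattern of each gene was compared with that of all tested genes by Pearson's r of log2 CPM. These correlations describe libraries that share mice and treatments, and they carry no test. F10 was most like Il10rb (r = 0.982) and Prune (0.979), Plau like Hcar2 (0.980) and Lcp1 (0.973), Serpinb2 like Clec5a (0.970) and Cmklr1 (0.964), and Thbs1 like Slc37a2 (0.939) and S1pr1 (0.936). F13a1 was most like AF251705 (0.960) and Ms4a6d (0.958), and F7 like Osbpl9 (0.933) and Mamdc2 (0.932). Plaur and Procr both had Slc39a14 as the most similar gene (0.958 and 0.943), and Plaur was the second most similar gene of Procr (0.933). For F3 the highest values were 0.908 for Bap1 and 0.905 for Cipc, the lowest top value of the 9 genes. Between pairs of the 9 genes, r ranged from 0.24 for F7 and Plau to 0.93 for Plaur and Procr.

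The other genes of the pathway were taken from a list of 52, of which 29 were high enough to be tested. The 23 untested genes, with no more than 10 counts in any library, include the fibrinogen genes Fga, Fgb and Fgg, prothrombin (F2), plasminogen (Plg), tissue plasminogen activator (Plat) and protein C (Proc). In these cultures the transcripts of the plasma substrates were therefore at or near 0. Those of factors VII and X, urokinase and its receptor had at least 237 counts in every library. Tissue factor was low as well, with 4 to 30 counts per library and 4 to 9 in iBET Ova. Of the 29 genes, 4 rose and 8 fell with iBET in Ova, 4 rose and 8 fell with iBET in IC, 1 rose and 2 fell with IC in DMSO, and 1 rose and 0 fell with IC in iBET. Over all tested genes, 27.7% rose and 28.9% fell in the first comparison, 27.1% and 29.0% in the second, 9.59% and 10.7% in the third, and 5.19% and 6.63% in the last, so the share of the list that fell with iBET was near that of all genes. Their median log2 fold changes were -0.21, -0.12, 0.04 and 0.07. With the replicate block the calls were 6 and 11, 7 and 12, 8 and 4, and 9 and 1, in the same order, against 33.5% and 35.2%, 32.6% and 35.4%, 18.3% and 19.8%, and 14.2% and 14.7% of all genes.

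In the plasmin system, 5 of 11 tested genes fell with iBET in Ova and 4 in IC, and none rose, against 28.9% and 29.0% lower and 27.7% and 27.1% higher over all genes. With the block 7 fell and 1 rose in Ova (Itgb2), and 6 fell and 2 rose in IC (Serpine2 and Itgam), against 35.2% and 35.4% lower over all genes. The genes that fell without the block were the serpins Serpinb10 (log2 fold change -1.88 and -1.62) and Serpinb8 (-1.32 and -1.08), the plasminogen receptor Plgrkt (-0.40 and -0.47), Anxa2 (-0.33 and -0.29), which binds plasminogen together with S100a10, and S100a10 itself with Ova (-0.24). With IC, S100a10 was called with the block and not without it (-0.16 in both fits, adjusted p = 0.00577 and 0.1). Serpinb10, annotated as a polymorphic pseudogene, overlaps Serpinb2 on the same strand of chromosome 1, and Serpinb8 lies 54527 bases from Serpinb2. Serpinb10 and Serpinb8 had mean levels of 6.42 and 16.0 CPM in DMSO Ova and 1.74 and 6.41 CPM in iBET Ova. The list placed both in this group, and their action on plasmin or its activators was not measured. The integrin chains Itgam and Itgb2, whose complex binds fibrinogen, were abundant, with means of 1204 to 1421 and 1753 to 2230 CPM. They were called in none of the 4 comparisons without the block. For IC against Ova, 0 of the 11 genes of this group were called without the block. With the block 5 rose in DMSO and 7 in iBET, and 0 fell, against 18.3% and 14.2% higher over all genes.

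Among the genes of initiation and thrombin, Serpinc1 (antithrombin) rose with iBET by 1.61 in Ova and 1.65 in IC, from means of no more than 0.20 CPM. The vitamin K-dependent carboxylase Ggcx, which modifies factors VII and X, rose from 11.6 to 18.8 CPM in Ova (log2 fold change 0.70, adjusted p = 0.0022) and by 0.58 in IC (adjusted p = 0.00915). Factor V (F5), the cofactor of active factor X, fell from 54.8 to 36.7 CPM in Ova (-0.58, adjusted p = 0.0473). With IC its log2 fold change was -0.40 (adjusted p = 0.16), and with the block F5 was called there (-0.40, adjusted p = 0.000797) and with IC in DMSO (-0.23, adjusted p = 0.0482). Vkorc1l1 rose in Ova by 0.18, and Vkorc1, the vitamin K reductase, in IC by 0.30, as did F8 by 0.80 from a mean of 0.36 CPM.

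The thrombin receptor gene with the largest fall of the list was F2rl2. F2rl2 (protease-activated receptor 3) fell with iBET from 27.2 to 5.05 CPM in Ova (-2.43, adjusted p = 4.84e-11) and from 18.7 to 4.49 CPM in IC (-2.06, adjusted p = 4.73e-10), and it was lower with IC in DMSO by 0.54 (adjusted p = 0.0078). F2r (protease-activated receptor 1) fell with iBET in IC by 0.76 (adjusted p = 0.0073). Thbd, encoding thrombomodulin, the partner of the protein C receptor, fell by 1.36 in Ova (adjusted p = 0.000203) and by 1.00 in IC (adjusted p = 0.00332), and had a log2 fold change of -0.45 with IC in DMSO (adjusted p = 0.232), where Procr rose. With the block this difference of Thbd was called (-0.43, adjusted p = 0.00442). Gas6, a vitamin K-dependent ligand of TAM receptors, rose with iBET in Ova from 0.54 to 1.13 CPM.

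Of the thrombospondin-1 receptors, Cd36 rose with IC in DMSO from 751 to 1210 CPM (0.69, adjusted p = 0.000709) and fell with iBET in IC by 0.52 (adjusted p = 0.00139), and Cd47 fell with IC in DMSO by 0.37 (adjusted p = 0.0324). With the block the same directions were called with IC in iBET, for Cd36 (0.35, adjusted p = 0.00161) and Cd47 (-0.32, adjusted p = 0.0498). Tgm2, a transglutaminase related to factor XIII, rose with IC in iBET from 235 to 529 CPM (1.17, adjusted p = 0.0183), and its difference in DMSO was 0.84 (adjusted p = 0.0617, and called with the block). With the block Tgm2 was also lower with iBET in Ova (-0.37, adjusted p = 0.00181). Vwf, the platelet adhesion ligand, had means of 115 to 131 CPM and was called in none of the 4 comparisons in either fit.

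**Figure D4:**
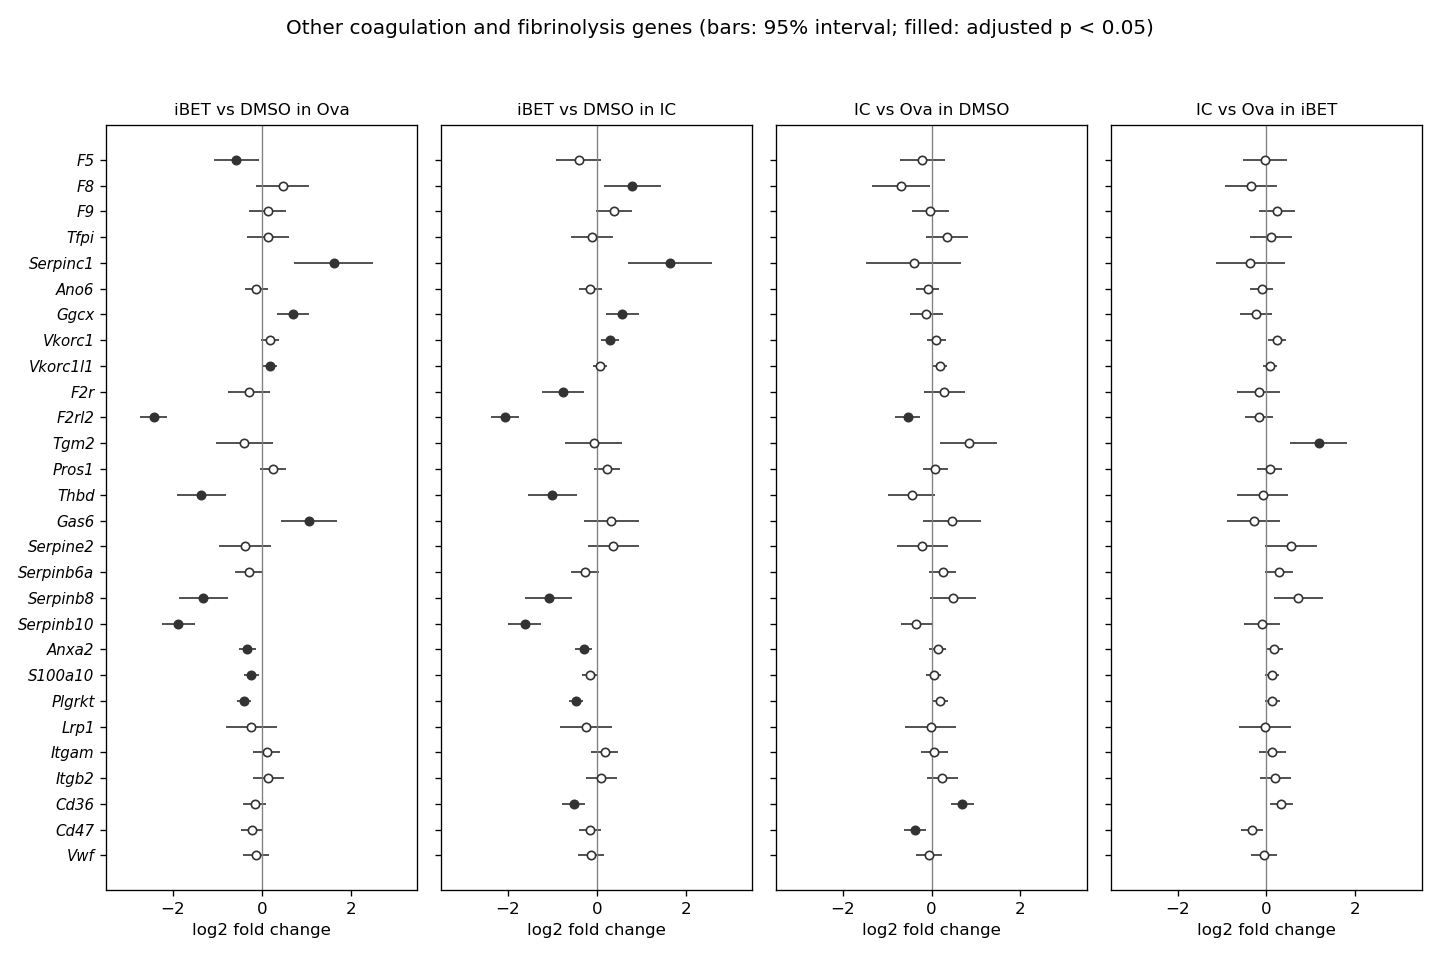
Log2 fold change (points) with its 95% interval (bars) in the fit of the groups alone for the other coagulation and fibrinolysis genes that were tested and are reported singly, in 4 comparisons, filled where the adjusted p was under 0.05. F2rl2, Serpinb10, Serpinb8 and Thbd lie below 0 in both iBET comparisons, and Serpinc1 and Ggcx above 0.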

How the data were processed

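RNA-seq of BMDCs was analysed for 20 libraries, 5 mice in each of 4 groups taken from the labels. The authors trimmed reads with Trim Galore, aligned them to mm10 with HISAT2 and deposited featureCounts counts per gene. Annotation, strand setting and treatment of multi-mapping reads are not given in the sources used here. The deposited second table holds signal values, which the authors made by dividing each library's counts by a size factor (checked to equal that of DESeq2), and was used only in limma.

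Counts were filtered with filterByExpr, scaled by TMM and compared by edgeR 4.0.16 (R 4.3.3), whose quasi-likelihood F test took group as its single factor in 1 fit of 20 libraries. Benjamini-Hochberg adjustment ran over 12465 genes (threshold 0.05). As all 9 genes were tested, the planned exact permutation test for low genes was not needed. Log2 CPM used a prior count of 2. Positions are from GENCODE M21 (GRCm38) and promoters from RefSeq (GRCm38.p6). The members, lists and markers were chosen with earlier results of these data known. The text names the 9 members, called genes of the wider list (at most 6 per role), marker genes beside a result, neighbours in the annotation, and for each member the 2 genes with the highest Pearson correlation. Untested or uncalled genes of that list, such as Vwf, were added after their values were seen. The single-gene result of 1 gene of that list is not reported here.

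By the labels, libraries of 1 letter (A to E) are of the same mouse. Their deviations from the group means correlated across genes at 0.307 to 0.675 (30 pairs, mean 0.524), against a mean of -0.156 between mice. Subtracting the group means pulls the value between mice below 0. It also includes pairs within a group, whereas pairs of 1 mouse are all across groups, so the means are not like for like. Libraries of a group differed beyond counting error (chi-square per degree of freedom at least 12.6 over 40 pairs), so errors are spreads between mice. Alternatives were the replicate block, DESeq2 1.42.0 (Wald test) with and without it, DESeq2 size factors, library size only, svaseq of sva 3.50.0 (3 variables), no filter, limma 3.58.1 on log2 of the deposited signal plus 1, the 10 libraries compared, leaving out each mouse, mice A and B only, and mice C, D and E only. The test was tested on simulated counts drawn independently for each library, with no effect of mouse. That simulation therefore says nothing of how pairing by mouse changes the calls.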

Additional observations from a re-analysis of the deposited data

Results flagged for a closer look

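Among the 36 sets of 5 libraries (9 genes in 4 groups), 2 held a library whose gap to its nearest neighbour passed Dixon's 95% critical value of 0.71 times the range, and chance passes about 1 in 20. Thbs1 in mouse B of iBET Ova was at 1950 CPM, above the other 4 mice at 654 to 1022 CPM, with a gap of 0.716 of the range. Procr in mouse A of DMSO Ova was at 27.4 CPM, above the other 4 at 8.33 to 12.8 CPM, with a gap of 0.768 of the range. The log2 fold change of Thbs1 with iBET in Ova ranged from -1.70 to -1.48 over the mice left out in turn. Without mouse A the rise of Procr with IC in DMSO was 1.31 in place of 1.00.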

How the results depend on the processing

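Of 710 log2 fold changes of single genes under the alternatives, 597 kept direction and side of the threshold, 67 passed it newly, 24 no longer passed it and 22 changed sign, none of these being called in either setting. With the replicate block, 8 and 9 genes were called for iBET in Ova and in IC, 5 and 7 for IC in DMSO and in iBET and 0 for the interaction, and DESeq2's Wald test with that block gave 8, 9, 5, 7 and 1. Besides the calls printed in the report, the block changed no other call of the 9 genes. For IC in iBET, the count was 2 with DESeq2's Wald test, 5 with svaseq, 0 of the 8 genes tested with the 10 libraries compared (F3, called in the fit of all libraries, did not pass the filter on low counts there) and 3 with mice C, D and E only. For IC in DMSO it was 0 with mice A and B only and 5 with mice C, D and E only. Leaving out each mouse gave 0 to 4 genes for IC in DMSO (0 without mouse C or E, 1 without mouse B, 4 without mouse A) and 0 to 1 in iBET (0 without mouse C or E). Over all genes, the block called 4175 higher and 4385 lower with iBET in Ova, 4065 and 4408 in IC, 2284 higher and 2471 lower with IC in DMSO, 1766 and 1835 in iBET, and 50 and 52 for the interaction, where mice A and B only gave 0 and mice C, D and E only gave 13. Library size only gave all genes a median of -0.13 for IC in DMSO and -0.12 in iBET.

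Signs turned with IC in DMSO for F7 (0.070 with mice C, D and E only), F13a1 (-0.20 with mice A and B only; -0.031 to 0.36 leaving out each mouse), Serpinb2 (-0.0028 with library size only, -0.023 with mice A and B only, -0.033 to 0.32 leaving out each mouse) and Thbs1 (0.011 with the replicate block in edgeR and 0.012 in DESeq2, 0.14 with svaseq, 0.025 in limma, 0.12 with mice C, D and E only, -0.053 to 0.022 leaving out each mouse). For iBET in Ova that of Procr turned (0.054 with svaseq, 0.013 with mice C, D and E only). In the interaction it turned with mice C, D and E only for F7 (-0.045), F10 (-0.19, and -0.034 with svaseq) and F13a1 (-0.37), and leaving out each mouse gave -0.029 to 0.42 for F3 and -0.031 to 0.11 for F10. The cause was not tested. The 4 to 30 counts of F3 per library limit the precision of its fold changes.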
